A study of Mus musculus with 18 samples.

Results

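The 12 libraries described here are the 6 *Fmr1* KD and the 6 *Zfp598* KD libraries of an 18-library RNA-seq series, and they were set against each other directly, without a Scramble KD library in the comparison. They were chosen by their labels, which give the target of the siRNA, a letter for the siRNA (A or B) and a replicate number. Neuro-2a (N2A) cells, a neuroblastoma line of mouse, received Silencer Select siRNAs by lipid transfection and were collected after 72 h, and all groups shared this handling and an otherwise unmodified genome. Each target was knocked down (KD) with 2 different siRNAs and each siRNA was sampled in 3 libraries of rRNA-depleted total RNA, giving the groups *Fmr1* siRNA A, *Fmr1* siRNA B, *Zfp598* siRNA A and *Zfp598* siRNA B. The 6 Scramble KD libraries, from cells given nontargeting siRNAs of the same kind, are used only as levels beside the comparison. The libraries of a siRNA are replicate transfections of a single cell line, and the spread between them may be technical. Where each siRNA was its own group in the fit, the p-values below measure that spread. Where the letter was a block, they also take in how far the difference between targets varied with the letter. The letter is only a name and ties no *Fmr1* siRNA to a particular *Zfp598* siRNA.

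FMRP, the product of *Fmr1*, is an RNA-binding protein best known as a repressor of translation in neurons, and its loss causes fragile X syndrome. The mouse gene *Zfp598* (ZNF598 in human) encodes an E3 ubiquitin ligase that recognizes collided ribosomes, marks small-subunit proteins and starts ribosome quality control, a step upstream of no-go mRNA decay. The study asked whether FMRP-stalled ribosomes feed this decay pathway. A direct contrast asks which mRNAs tell the loss of the repressor from the loss of the collision sensor.

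Total counts ranged from 13213653 to 14005697 per *Fmr1* KD library and from 7674724 to 13360908 per *Zfp598* KD library. Some libraries stood apart. In *Zfp598* siRNA A replicates 3 and 2 the most counted feature, which GENCODE M39 does not list, held 25.8% and 15.2% of all counts, against 5.4% to 7.93% in the *Fmr1* KD libraries. *Fmr1* siRNA B replicate 1 held 11.5 CPM (counts relative to library size, with edgeR's TMM library sizes) of 4 Y-linked genes, where no other library of the contrast exceeded 0.15 CPM. The same library held 33.3 CPM of 9 pluripotent stem cell markers, all 9 highest there, against at most 1.19 CPM in any other library. That sum left out *Lin28a* and *Dppa4*, which were counted in every library and were not highest there. With them the sum was 158 CPM there, against at most 196 CPM in the other 11 libraries of the contrast. Calls of single genes and counts of list members below moved when such libraries were left out, and values without them stand beside several of these. Among the neural and neuroblastoma markers checked, *Tubb3*, *Stmn2*, *Uchl1* and *Hand2* were strongly counted, with *Tubb3* between 444 and 510 CPM in *Fmr1* KD and between 462 and 543 CPM in *Zfp598* KD, while *Nefl* and *Nefm* were near 0. In bulk RNA, fewer cells of a type and less RNA per cell cannot be told apart.

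The siRNA targets were checked before other genes. *Fmr1* (chromosome X of GRCm39, 67722124 to 67761578, forward strand) was counted at 15.5 to 27.4 CPM in *Fmr1* KD (median 23.5), at 50.6 to 74 CPM in *Zfp598* KD (median 54.8) and at 51.4 to 68.9 CPM in Scramble KD (median 60.9). No *Fmr1* KD library reached the lowest *Zfp598* KD library. With the letter as a block, the log2 fold change of *Fmr1* KD over *Zfp598* KD was -1.42 (SE 0.158, adjusted p = 0.000240, edgeR's quasi-likelihood F test, Benjamini-Hochberg adjusted). It was -1.87 with the A siRNAs and -0.98 with the B siRNAs, and this difference of -0.90 between letters passed the test (adjusted p = 0.00177, edgeR). *Zfp598* (chromosome 17, 24888631 to 24900993, forward strand) was counted at 90.7 to 122 CPM in *Fmr1* KD (median 102), at 31.9 to 47.5 CPM in *Zfp598* KD (median 40.9) and at 103 to 130 CPM in Scramble KD (median 119). Its log2 fold change was 1.35 (SE 0.104, adjusted p = 1.73e-05, edgeR), with 1.49 for the A and 1.22 for the B siRNAs. In a two-sided exact permutation test with labels exchanged within each letter, p was 0.005 for each target, the smallest value the 400 arrangements allow.

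Among 18491 tested genes, *Fmr1* KD exceeded *Zfp598* KD for 130 (0.703%) and was exceeded by it for 79 (0.427%) when a call needed an adjusted p under 0.05 and a change over 2-fold in the letter-block fit. By the adjusted p alone, 607 genes (3.28%) were higher and 747 (4.04%) lower. Taken separately, the A siRNAs gave 490 higher (2.65%) and 717 lower genes (3.88%), and the B siRNAs gave 518 higher (2.8%) and 203 lower genes (1.1%). These lists shared few genes. Called in the same direction with each letter were 26 higher genes (0.141%) and 13 lower genes (0.0703%), or 201 (1.09%) and 300 (1.62%) without the fold criterion. For 5428 genes (29.4%) the log2 fold change itself differed between the letters at an adjusted p under 0.05, and 110 genes (0.595%) were called in opposite directions.

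**Figure D1:**
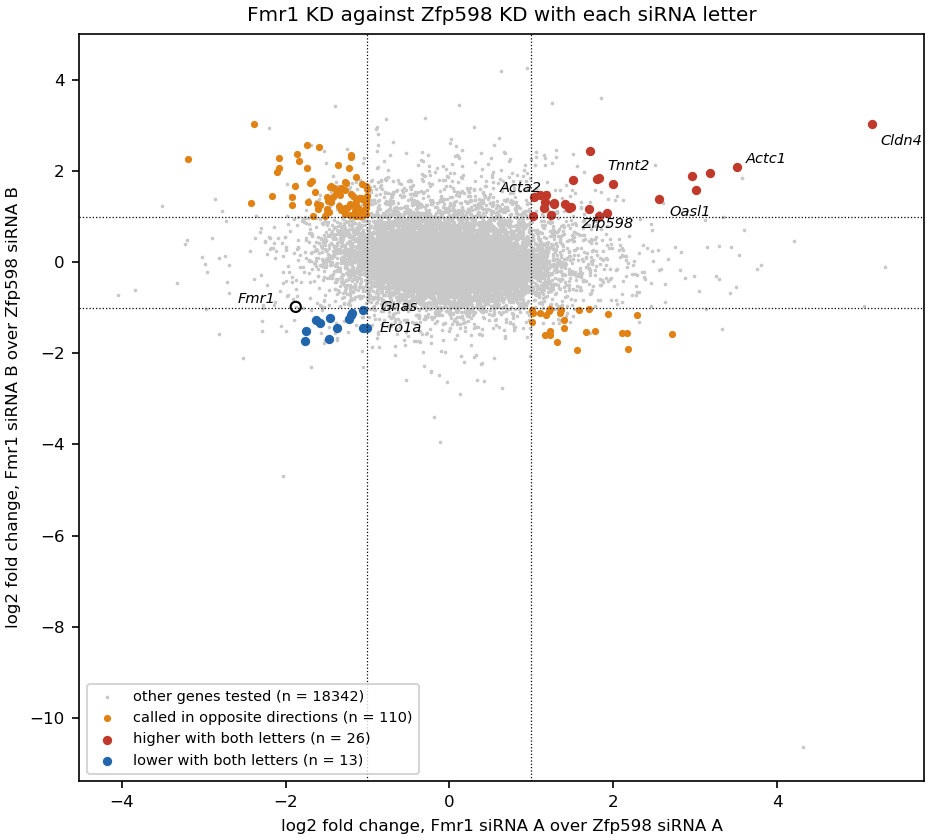
Each point is 1 of the 18491 genes tested, with its log2 fold change of *Fmr1* KD over *Zfp598* KD for the A siRNAs on the horizontal axis and for the B siRNAs on the vertical axis (dotted lines, 2-fold). The 26 genes higher and 13 lower with both letters lie in the upper right and lower left, the 110 genes called in opposite directions in the other corners, and *Fmr1* (open circle) lies just inside the 2-fold line of the B siRNAs. The point at the bottom right is *Agtr2*.

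All 39 genes called with both letters were also called in the letter-block fit. In 34 of them the 6 *Fmr1* KD and the 6 *Zfp598* KD libraries did not overlap, a separation seen for 688 genes (3.72%) of all tested. The 39 were selected on these same libraries, so neither count is independent support for the calls. The difference between letters passed the test for 3 of the 39, *Oasl1*, *Adamts1* and *Ero1a*, and for 29.4% of all genes. Since the 39 were selected for calls in the same direction with both letters, this count says nothing of agreement between letters. Weakly counted genes may also differ between letters without passing. Since the letter is only a name, the siRNAs were also crossed. Called in all 4 pairings of a *Fmr1* siRNA with a *Zfp598* siRNA were 17 of the 26 higher genes and 9 of the 13 lower genes. *Ero1a* was not among them, with a log2 fold change of -0.70 for *Fmr1* siRNA A over *Zfp598* siRNA B. Nor was *St18*, at 0.82 in the same pairing. For *Fmr1* siRNA B over *Zfp598* siRNA A, *Gnas* (-0.96), *Acta2* (0.997) and *Oasl1* (0.29) fell short of 2-fold. Weak counting was common, with 24 of the 39 genes at a mean under 50 counts per library. When each of the 12 libraries was left out in turn, 13 of the 39 genes kept the call in every fit, namely *Acta2*, *Actc1*, *Grap2*, *Jakmip3*, *Mir99ahg*, *Oasl1*, *St18*, *Tnnt2* and *Zfp598* among the higher and *Ero1a*, *Gm2606*, *Gm29562* and *Pgam1-ps2* among the lower. Without both *Fmr1* siRNA B replicate 1 and *Zfp598* siRNA A replicate 3, 23 higher and 5 lower genes were called with both letters, and 16 and 4 of the original genes were among them.

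Levels in Scramble KD were set beside the contrast as a description, since the KD libraries had also served to select the genes. Of the 26 higher genes, 9 had all *Fmr1* KD libraries above all Scramble KD libraries, a separation in either direction that 1084 genes (5.86%) of all tested showed. For 2 of the 26, *Zfp598* itself and *Dusp14*, all *Zfp598* KD libraries lay below Scramble KD, where 349 genes (1.89%) of all tested were separated in either direction. For the other 15 neither knockdown was clear of Scramble KD. Of the 13 lower genes, *Gm11703* and *Pgam1-ps2* had *Fmr1* KD wholly below Scramble KD, *Gm29562* and *Gm34030* had *Zfp598* KD wholly above it, and the other 9 were not separated from Scramble KD by either knockdown.

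Genes of the contractile apparatus stood among the higher genes. *Acta2*, the smooth muscle actin, was counted at 5.3 to 7.78 CPM in *Fmr1* KD (median 5.84), at 1.89 to 3.06 CPM in *Zfp598* KD (median 2.63) and at 0.968 to 3.27 CPM in Scramble KD (median 2.1). All *Fmr1* KD libraries were above all others. Its log2 fold change over *Zfp598* KD was 1.28 (SE 0.157, adjusted p = 0.000412, edgeR) and was 1.28 with each letter. *Tnnt2*, the cardiac troponin T that anchors the troponin complex to tropomyosin, was at 4.62 to 8 CPM in *Fmr1* KD (median 6.78) and at 1.35 to 2.6 CPM in *Zfp598* KD (median 1.87), with 1.02 to 3.52 CPM in Scramble KD (median 1.52). The groups did not overlap and the log2 fold change was 1.82 (SE 0.194, adjusted p = 0.000172, edgeR), nearly the same with the A siRNAs (1.82) and the B siRNAs (1.84). *Actc1*, the cardiac actin, was weakly counted, at 0.804 to 1.57 CPM in *Fmr1* KD (median 0.975) against 0 to 0.32 CPM in *Zfp598* KD (median 0.216) and 0.088 to 0.584 CPM in Scramble KD (median 0.462). It too was above both other groups in every *Fmr1* KD library, with a log2 fold change of 2.51 (SE 0.384, adjusted p = 0.00164, edgeR).

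**Figure D2:**
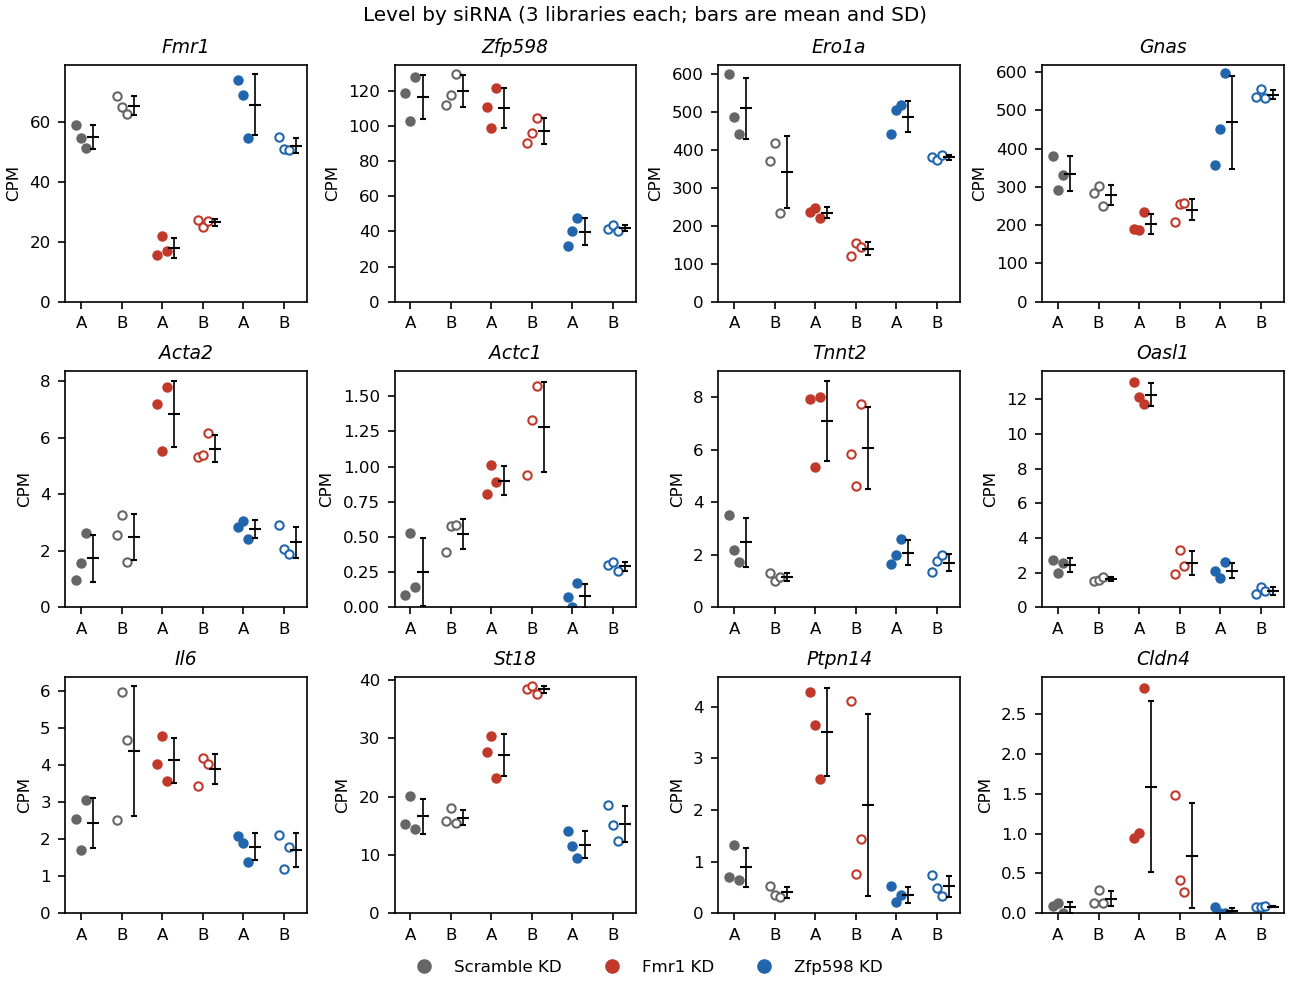
CPM in each library for the siRNA targets and 10 of the genes called with both letters, by siRNA A (filled) and B (open), with Scramble KD in grey, *Fmr1* KD in red and *Zfp598* KD in blue. Points are the 3 libraries of a siRNA, bars beside them the mean and SD (the lower end of some bars is cut at 0). *Acta2*, *Actc1*, *Tnnt2* and *St18* were highest in all 6 *Fmr1* KD libraries, whereas *Oasl1* was high mainly with *Fmr1* siRNA A, at 11.7 to 13 CPM.

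These genes prompted a look at 45 actin, tropomyosin, myosin light chain, troponin and actin-binding genes, a list drawn up after the values were seen, so its counts are a description only. The letter-block fit of edgeR covered 36 members and, by the adjusted p, put 12 of them higher in *Fmr1* KD and 0 lower, where 3.28% of all genes were higher. The median log2 fold change was much the same with both letters, 0.35 with the A and 0.30 with the B siRNAs, and 0.31 and 0.42 in the crossed pairings, beside 0.0084 and -0.0061 for all genes with the A and B siRNAs. Passing with each letter separately were 7 members, *Actc1*, *Tnnt2* and *Acta2* and, at smaller sizes, the filamin *Flna* (log2 fold change 0.47), the focal adhesion protein *Zyx* (0.54), the calponin *Cnn2* (0.58) and the tropomyosin *Tpm1* (0.37). *Flna* was at 1150 to 1430 CPM in *Fmr1* KD and at 857 to 1020 CPM in *Zfp598* KD, with no overlap. The cytoplasmic actins were not among them, with log2 fold changes of -0.06 for *Actb* (adjusted p = 0.720) and -0.37 for *Actg1* (adjusted p = 0.276, both edgeR). Without *Fmr1* siRNA B replicate 1, 9 members were higher and 0 lower.

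**Figure D3:**
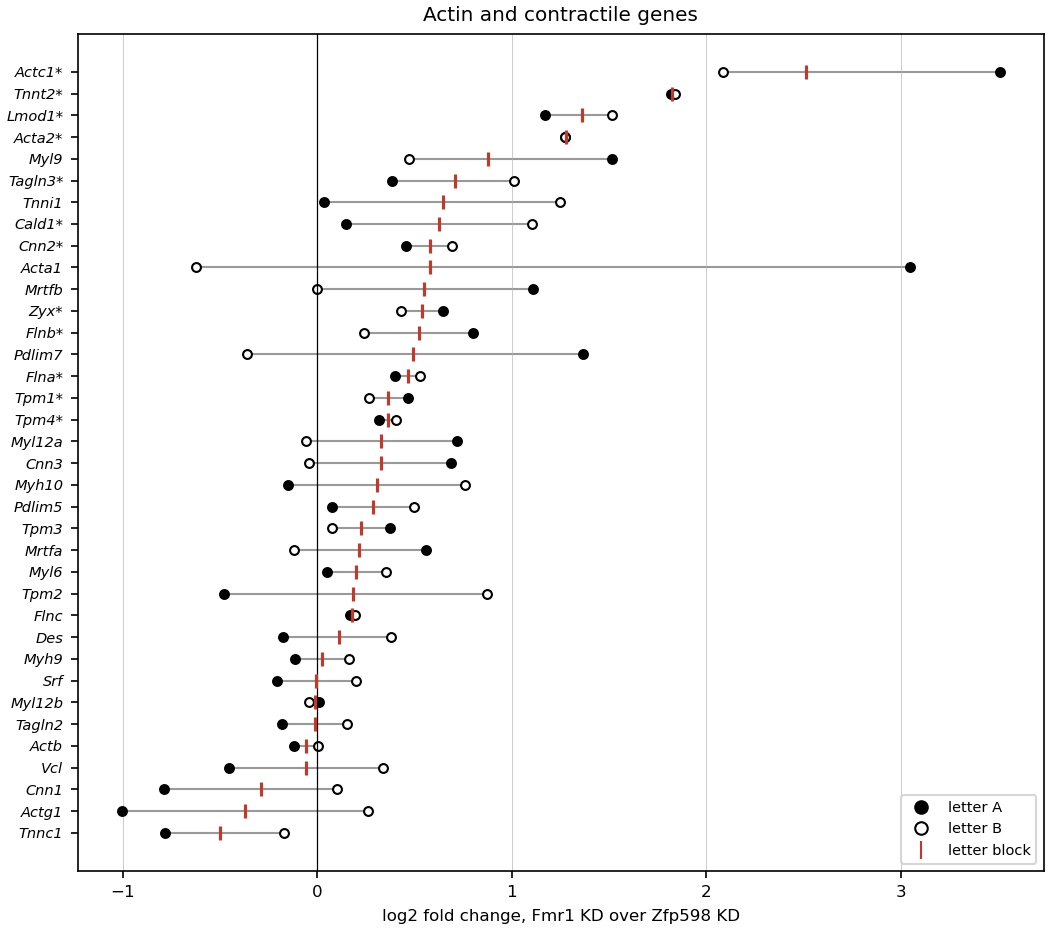
Log2 fold change of *Fmr1* KD over *Zfp598* KD for the 36 tested actin and contractile genes with the A siRNAs (filled), the B siRNAs (open) and the letter block (red bar). Asterisks mark the 12 genes with an adjusted p under 0.05 in the letter-block fit, all of them on the higher side.

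The CArG box, the sequence to which serum response factor binds in front of many contractile genes, was searched on both strands in RefSeq promoters (GRCm38.p6, 250 bases before to 50 after the start site). It was present for 9 of the 38 genes of this list with a promoter in the table (23.7%) and for 1.81% of all 27025 genes there. Since contractile genes are known for this motif, the share describes the list and not the contrast. Of the 3 genes called with both letters, *Actc1* held the motif (capitals) in the window chr2:114052826-114053125, minus strand, shown 5′ to 3′ as the contractile gene with the largest difference.
*Actc1*: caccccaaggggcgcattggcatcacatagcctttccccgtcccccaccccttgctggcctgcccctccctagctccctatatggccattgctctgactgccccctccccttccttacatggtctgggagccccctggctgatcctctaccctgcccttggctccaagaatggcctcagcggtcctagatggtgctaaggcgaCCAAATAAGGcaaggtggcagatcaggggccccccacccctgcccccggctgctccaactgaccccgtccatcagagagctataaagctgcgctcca

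Among the other higher genes with at least 50 counts were a neural transcription factor, a secreted protease and genes of innate immunity. *St18*, a zinc finger transcription factor of neural and neuroendocrine cells, was at 23.3 to 39 CPM in *Fmr1* KD (median 34), at 9.54 to 18.6 CPM in *Zfp598* KD (median 13.3) and at 14.5 to 20.1 CPM in Scramble KD (median 15.6). This gave a log2 fold change of 1.25 (SE 0.123, adjusted p = 0.000103, edgeR). *Adamts1*, a secreted metalloprotease that cleaves proteoglycans, was at 10.1 to 20 CPM (median 14.5) against 3.82 to 6.7 CPM in *Zfp598* KD (median 5.42), and 3.92 to 6.53 CPM in Scramble KD (median 4.25). No libraries overlapped in either comparison. The log2 fold change was 1.41 (SE 0.183, adjusted p = 0.000595, edgeR), 1.83 with the A and 1.01 with the B siRNAs, and it lost the 2-letter call without *Fmr1* siRNA B replicate 2 or without *Zfp598* siRNA B replicate 1. *Trim65*, an E3 ligase of the RIG-I-like receptor pathway, was at 6.44 to 11.3 CPM (median 7.26) against 2.25 to 4.34 CPM (median 3.04), a log2 fold change of 1.28 (SE 0.192). *Celsr1*, an atypical cadherin of planar cell polarity, was at 3.85 to 9.94 CPM (median 4.91) against 1.94 to 2.88 CPM (median 2.29), a log2 fold change of 1.24 (SE 0.238). Its highest value was that of *Fmr1* siRNA B replicate 1, and without that library the letter-block log2 fold change was 0.98. The 2-letter call of *Celsr1* was lost in 5 of the 12 fits that left out a library, without *Fmr1* siRNA A replicates 1 or 2, *Fmr1* siRNA B replicate 1 or *Zfp598* siRNA A replicates 1 or 2, and that of *Trim65* without *Zfp598* siRNA A replicate 1.

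*Oasl1*, an interferon-induced member of the oligoadenylate synthetase family that lacks enzymatic activity, had the largest log2 fold change among the better counted genes, 2.06 (SE 0.235, adjusted p = 0.000283, edgeR). With the A siRNAs it was at 13, 12.1 and 11.7 CPM in *Fmr1* KD and at 2.09, 1.69 and 2.6 CPM in *Zfp598* KD. With the B siRNAs it was at 1.95, 3.29 and 2.39 CPM and at 0.75, 1.2 and 0.945 CPM. The groups were separated within each letter, whereas the lowest *Fmr1* KD value lay below the highest *Zfp598* KD value across letters. *Il6*, an inflammatory cytokine, was at 3.42 to 4.78 CPM in *Fmr1* KD (median 4.03) and at 1.2 to 2.1 CPM in *Zfp598* KD (median 1.85), but at 1.72 to 5.96 CPM in Scramble KD (median 2.81). Its log2 fold change was 1.17 (SE 0.181), 1.15 with the A and 1.18 with the B siRNAs, and its 2-letter call was lost without *Zfp598* siRNA B replicate 2 (letter-block log2 fold change 1.08).

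The promoter windows of *Il6* and *Oasl1* each held the consensus NF-κB site, which 9.55% of all genes in the table had, and neither held the interferon response core GAAANNGAAA, which 3.99% had, on either strand. The NF-κB site was not particular to them, being present for 5 of the 22 genes called with both letters that have a promoter in the table (22.7%), *Actc1* and *Ero1a* among them, and for 36.8% of the actin list. The *Il6* window, chr5:30012864-30013163, plus strand, is shown 5′ to 3′ as the cytokine gene of the contrast, with the NF-κB match in capitals.
*Il6*: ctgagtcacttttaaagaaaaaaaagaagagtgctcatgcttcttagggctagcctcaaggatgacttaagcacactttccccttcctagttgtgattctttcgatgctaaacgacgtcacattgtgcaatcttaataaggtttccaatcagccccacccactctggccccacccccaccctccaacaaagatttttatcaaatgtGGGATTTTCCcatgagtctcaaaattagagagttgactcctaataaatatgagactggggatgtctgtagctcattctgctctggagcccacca

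Larger fold changes came from genes with few counts. *Cldn4*, a claudin of epithelial tight junctions, was at 0.273 to 2.82 CPM in *Fmr1* KD (median 0.974), at 0 to 0.0859 CPM in *Zfp598* KD (median 0.0747) and at 0 to 0.291 CPM in Scramble KD (median 0.131). At a mean of 8.58 counts per library, the log2 fold change was 3.96 (SE 0.689, adjusted p = 0.00417, edgeR). The 2-letter call was lost without *Fmr1* siRNA B replicate 1 (letter-block log2 fold change 3.63). In that library the 4 epithelial markers *Epcam*, *Krt8*, *Krt18* and *Cdh1* summed to 10.1 CPM, against at most 6.11 CPM in the other 11 libraries. Of this sum *Cdh1* held 6.04 CPM, while *Krt8*, at 3.63 CPM, lay within the range of the other libraries. *Cldn4* itself was at 1.48 CPM there and was highest in *Fmr1* siRNA A replicate 3, at 2.82 CPM. The 2-letter call was also lost without any of the 3 *Zfp598* siRNA B libraries. *Ptpn14*, a tyrosine phosphatase that restrains YAP, was at 0.77 to 4.29 CPM in *Fmr1* KD (median 3.11) and at 0.211 to 0.75 CPM in *Zfp598* KD (median 0.414). Its log2 fold change was 2.52 (SE 0.434), and 2.18 without *Fmr1* siRNA B replicate 1, where the 2-letter call was lost, as it was without *Zfp598* siRNA B replicates 2 or 3. The remaining higher protein-coding genes had log2 fold changes from 1.14 to 2.29. They were *Klhdc7a*, the deubiquitinase *Usp43*, the homeobox gene *Dmbx1*, the adaptor *Grap2*, the phosphatase *Dusp14*, the neuronal RNA-binding protein gene *Arpp21*, the kinesin-binding *Jakmip3*, the lysosomal channel *Mcoln3*, and *Lrrc2*.

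The other 5 higher genes were noncoding or unclassified transcripts. *Mir99ahg*, the host transcript of a microRNA cluster with *Mir99a*, *Mirlet7c-1* and *Mir125b-2*, was at 2.63 to 3.42 CPM in *Fmr1* KD (median 2.78), at 0.738 to 1.72 CPM in *Zfp598* KD (median 1.21) and at 0.594 to 1.62 CPM in Scramble KD (median 1.3), so that *Fmr1* KD stood clear of both. Its log2 fold change was 1.30 (SE 0.201, adjusted p = 0.00174, edgeR). *Gm42992* and *Gm42438* lie inside *Auts2* on its own strand. *Gm42992* was at 7.11 to 10.1 CPM in *Fmr1* KD against 2.53 to 5.29 CPM with *Zfp598* silenced (log2 fold change 1.02), while *Auts2* had a log2 fold change of 0.49 (adjusted p = 0.0630, edgeR), 0.98 with the A and 0.0028 with the B siRNAs. Reads of such transcripts and of their host gene may not be separable. The other such genes were *Gm36640* and *4933424N20Rik*.

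Lower in *Fmr1* KD than in *Zfp598* KD with both letters were 2 protein-coding genes, neither of them called in all 4 pairings of siRNAs. *Ero1a*, the oxidase that reoxidizes protein disulfide isomerase in the endoplasmic reticulum, was at 120 to 247 CPM in *Fmr1* KD (median 187), at 373 to 516 CPM in *Zfp598* KD (median 414) and at 234 to 598 CPM in Scramble KD (median 430). Every *Fmr1* KD library was below every *Zfp598* KD library, and 2 of them reached the range of Scramble KD. The log2 fold change was -1.25 (SE 0.0957, adjusted p = 1.73e-05, edgeR), -1.06 with the A and -1.45 with the B siRNAs, a difference between letters that passed (adjusted p = 0.0437, edgeR). *Gnas*, which encodes the stimulatory G protein alpha subunit in a complex imprinted locus (chromosome 2, 174126022 to 174188537, forward strand), was at 188 to 258 CPM in *Fmr1* KD (median 222), at 357 to 597 CPM in *Zfp598* KD (median 534) and at 250 to 381 CPM in Scramble KD (median 297). The difference on the log2 scale was -1.18 (SE 0.115, adjusted p = 0.000103, edgeR). With the A siRNAs the *Zfp598* KD values were 357, 451 and 597 CPM, the last from replicate 3, and the 2-letter call was lost without that library (letter-block log2 fold change -1.09). The antisense RNA *Gnasas1* overlaps the locus on the reverse strand and had a log2 fold change of -0.38 (adjusted p = 0.0219, edgeR).

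Of the other 11 lower genes, 6 were processed pseudogenes, intronless copies of spliced mRNAs. Aligned to GENCODE M39 protein-coding transcripts, *Pgam1-ps2* matched *Pgam1* at 100% identity, *Gm2606* matched *Gapdh* at 99.9%, *Gm11703* matched *Rpl21* at 99.2%, *Gm12350* matched *Chchd2* at 98.9%, *Gm7502* matched *Rps2* at 93.1% and *Gm12741* matched *Rpl9* at 87.4%. Their counts may hold reads of the parent mRNA, because how reads with several alignments were treated is not given in the sources used here. *Gm2606* was at 2.95 to 4.48 CPM in *Fmr1* KD against 7.68 to 13.3 CPM with *Zfp598* silenced (log2 fold change -1.34), whereas *Gapdh* was at 977 to 1200 and 1150 to 1680 CPM (log2 fold change -0.33, adjusted p = 0.0691, edgeR). *Pgam1-ps2* was at 1.12 to 1.64 and 2.1 to 5.27 CPM (log2 fold change -1.46), and its parent *Pgam1* at 161 to 225 and 241 to 341 CPM (log2 fold change -0.68, adjusted p = 0.00287, edgeR). None of the 6 parents was called in the letter-block fit. The remaining 5 were *Gm34030*, a long noncoding RNA across the *Hand2* locus, *Gm29562*, *Gm44380*, *Gm43521* and ENSMUSG00000058360, which has no entry in the annotation used.

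*Ero1a* belongs to the list of endoplasmic reticulum folding and unfolded protein response genes, of which 6 of 31 tested members were lower and 1 higher in *Fmr1* KD by the adjusted p of edgeR's letter-block fit, beside 4.04% and 3.28% of all genes. The list median was -0.23, with -0.03 for the A and -0.40 for the B siRNAs. Passing with each letter were *Ero1a*, the chaperone *Hsp90b1* (log2 fold change -0.51, 285 to 376 against 364 to 516 CPM), the kinase *Eif2ak3* that senses unfolded protein (-0.51, 41.8 to 60.5 against 63.8 to 90.7 CPM) and, in the higher direction, the translocon subunit *Sec61b* (0.50, 23.2 to 31.4 against 17.1 to 21.5 CPM). In the ATF4 and amino acid response list 5 of 40 tested members were lower and 0 higher. The transcription factor *Cebpg* had the clearest difference, at 96.5 to 116 CPM in *Fmr1* KD against 156 to 215 CPM with *Zfp598* silenced (log2 fold change -0.79, SE 0.0697, adjusted p = 3.56e-05, edgeR), and was wholly below Scramble KD (169 to 184 CPM). *Trib3*, a pseudokinase induced by ATF4 (-0.58), and the amino acid transporter *Slc1a4* (-0.40) also passed with each letter, and without *Fmr1* siRNA B replicate 1 only 1 member did. Without that library and *Zfp598* siRNA A replicate 3, 3 members of this list were lower. The median of this list was 0.20 with the A and -0.34 with the B siRNAs.

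Glycolysis and hypoxia response genes had the lowest letter-block median of all lists, -0.63 on the log2 scale. By the adjusted p, 15 of 35 tested members were lower and 0 higher in *Fmr1* KD, beside 4.04% and 3.28% of all genes. This depended on the letter. With the A siRNAs the median was -1.27 and 22 members were called lower, beside 3.88% of all genes. With the B siRNAs it was -0.02 and 0 were called in either direction, beside 2.8% of all genes higher and 1.1% lower. The difference between letters passed for 31 of the 35, beside 29.4% of all genes. In the crossed pairings the medians were -0.66 and -0.60. *Bnip3*, a mitophagy receptor induced by hypoxia, was called in the letter-block fit (log2 fold change -1.56, SE 0.340, adjusted p = 0.0139, edgeR), at -2.72 with the A and -0.43 with the B siRNAs. It was at 28.1, 31.8 and 34.1 CPM with *Fmr1* siRNA A and at 79.7, 118 and 103 CPM with *Fmr1* siRNA B, and at 242, 208 and 166 CPM with *Zfp598* siRNA A and 140, 131 and 135 CPM with *Zfp598* siRNA B. All *Fmr1* KD libraries were thus below all *Zfp598* KD libraries, with a wider gap for A. The glycolytic enzymes *Tpi1* (log2 fold change -0.88) and *Pgam1* (-0.68) and the mitochondrial adenylate kinase *Ak4* (-0.92) passed, like *Bnip3*, with each letter by the adjusted p. Without *Fmr1* siRNA B replicate 1, 12 members were lower in the letter-block fit and none passed with each letter. Without *Zfp598* siRNA A replicate 3, 15 were lower and 7 passed with each letter. With both libraries left out, 10 were lower and 3 passed with each letter.

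**Figure D4:**
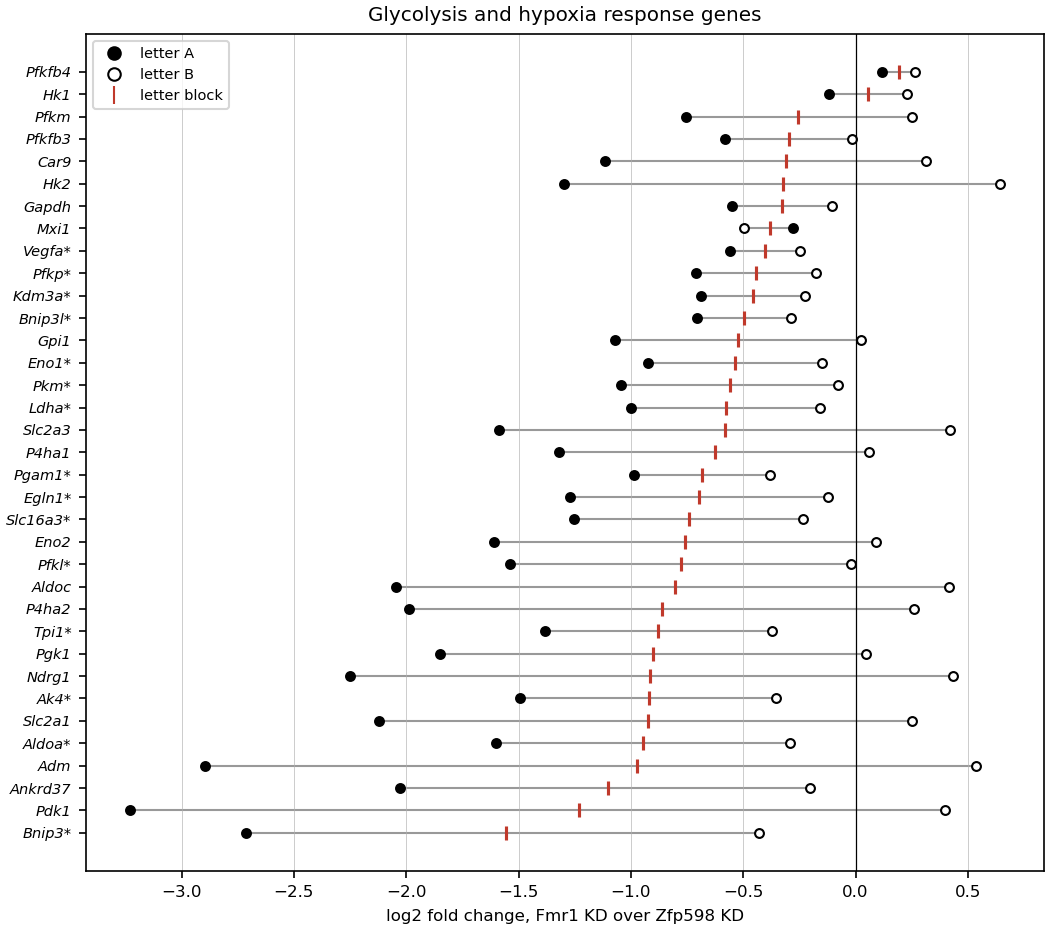
Log2 fold change of *Fmr1* KD over *Zfp598* KD for the 35 tested glycolysis and hypoxia response genes with the A siRNAs (filled), the B siRNAs (open) and the letter block (red bar). Asterisks mark the 15 genes with an adjusted p under 0.05 in the letter-block fit. Most A values lie far left of the B values, with *Bnip3* at -2.72 and -0.43.

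The hypoxia response core ACGTG, searched on both strands of the RefSeq promoters, was found for 23 of the 33 listed genes with a promoter in the table (69.7%) and for 21.8% of all genes. The list is made of known hypoxia targets, so the share says nothing of the contrast. *Ero1a*, also known to be induced by hypoxia, *Bnip3* and *Pgam1* each held the core, in capitals below, and are shown 5′ to 3′ as genes lower in *Fmr1* KD by the adjusted p with each letter. The windows are chr14:45318523-45318822 (minus strand), chr7:138909457-138909756 (minus strand) and chr19:41911621-41911920 (plus strand).
*Ero1a*: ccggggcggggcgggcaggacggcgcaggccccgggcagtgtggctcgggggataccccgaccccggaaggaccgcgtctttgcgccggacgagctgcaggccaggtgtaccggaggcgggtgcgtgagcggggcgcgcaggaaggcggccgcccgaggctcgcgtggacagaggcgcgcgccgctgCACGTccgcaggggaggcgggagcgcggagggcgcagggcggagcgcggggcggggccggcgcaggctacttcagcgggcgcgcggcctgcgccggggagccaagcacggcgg
*Bnip3*: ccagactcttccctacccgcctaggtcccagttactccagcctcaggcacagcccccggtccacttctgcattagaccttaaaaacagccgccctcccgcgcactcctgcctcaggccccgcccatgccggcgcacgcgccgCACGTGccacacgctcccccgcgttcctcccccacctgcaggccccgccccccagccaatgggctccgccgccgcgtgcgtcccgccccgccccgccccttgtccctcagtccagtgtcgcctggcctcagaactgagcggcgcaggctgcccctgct
*Pgam1*: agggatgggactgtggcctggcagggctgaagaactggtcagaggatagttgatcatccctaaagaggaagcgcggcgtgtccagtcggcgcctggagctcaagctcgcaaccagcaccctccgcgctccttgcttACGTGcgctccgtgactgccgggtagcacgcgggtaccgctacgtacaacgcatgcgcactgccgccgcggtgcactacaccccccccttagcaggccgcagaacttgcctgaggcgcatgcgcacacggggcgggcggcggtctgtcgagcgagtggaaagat

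Immune response genes were described by an NF-κB and an interferon list. In the NF-κB list 6 of 18 tested members were higher and 0 lower in *Fmr1* KD, with 3.28% of all genes higher, and *Il6* and the NF-κB subunit gene *Nfkb2* (35.6 to 44.9 against 21 to 32.9 CPM, log2 fold change 0.51) passed with each letter. The list median was 0.39, with 0.31 for the A and 0.16 for the B siRNAs. In the interferon list 8 of 44 were higher and 1 lower. Without *Fmr1* siRNA B replicate 1 and *Zfp598* siRNA A replicate 3, 3 NF-κB and 4 interferon genes were higher. The interferon list differed between letters, with a median of 0.66 for the A and -0.01 for the B siRNAs. The antiviral gene *Rsad2* was at 46.4, 43.6 and 31.1 CPM with *Fmr1* siRNA A but at 2.95, 2.1 and 3.9 CPM with *Fmr1* siRNA B, within the 2.92 to 5.99 CPM of Scramble KD but for 1 library. Only *Oasl1* and the secreted glycoprotein gene *Lgals3bp* (log2 fold change 0.46) passed with each letter.

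Extracellular matrix genes showed the reverse dependence. Of 29 tested members 10 were higher and 0 lower in *Fmr1* KD, with 3.28% of all genes higher, and the medians were -0.07 for the A and 0.72 for the B siRNAs. None passed with each letter. Without *Fmr1* siRNA B replicate 1, 5 members were higher and 1 passed with each letter, and without that library and *Zfp598* siRNA A replicate 3 together 9 were higher. The proteoglycan gene *Vcan* had a log2 fold change of 0.95, 0.25 with the A and 1.63 with the B siRNAs. The basement membrane gene *Nid1* was called in the letter-block fit (log2 fold change 1.94, SE 0.391, adjusted p = 0.00935, edgeR), at 1.41 to 6.65 CPM in *Fmr1* KD and 0.258 to 1.04 CPM in *Zfp598* KD. The value of 6.65 CPM was that of *Fmr1* siRNA B replicate 1, and the log2 fold change was 1.52 without it. *Mmp9*, a gelatinase, had a log2 fold change of 1.41 (SE 0.293), with 2.19 for the A and 0.58 for the B siRNAs.

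Catecholamine and noradrenergic genes were lower in *Fmr1* KD for 8 of 19 tested members and higher for 1, beside 4.04% and 3.28% of all genes. The list median was -0.49 in the letter-block fit, -0.53 with the A and 0.02 with the B siRNAs, and 5 members were lower without *Fmr1* siRNA B replicate 1. The secretory granule gene *Chgb* (119 to 158 against 163 to 209 CPM, log2 fold change -0.51) and *Gch1*, which makes the cofactor of tyrosine hydroxylase (179 to 211 against 253 to 303 CPM, -0.49), passed with each letter. *Ddc*, the aromatic amino acid decarboxylase, was called in the letter-block fit (log2 fold change -1.68, SE 0.325, adjusted p = 0.00733, edgeR). That call rested on *Zfp598* siRNA B, with 23.7, 24.4 and 21.5 CPM, whereas the other 9 libraries of the contrast held 2.15 to 5.22 CPM. Genes of mitosis and the G2/M phase were lower for 7 of 41 members, all with larger differences for the A siRNAs (list medians -0.63 and 0.10 for A and B), and none passed with each letter.

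In the pathways closest to the targets, the siRNA targets themselves were among the genes that passed. Of 28 tested genes of no-go decay and ribosome quality control, *Zfp598* was higher in *Fmr1* KD and *Ankzf1* (log2 fold change -0.55) and *Hbs1l* (-0.34) were lower (7.14% of the list, beside 4.04% of all genes), and only *Zfp598* passed with each letter. Of 23 genes of the FMRP family and its partners, *Fmr1*, *Pura* (-0.34) and *Ago1* (-0.32) were lower. This was 13% of the list with the siRNA target *Fmr1* counted in, beside 4.04% of all genes. Of 44 brain mRNAs known to bind FMRP, only the synaptic scaffold gene *Shank2* passed, at 20.3 to 23.4 CPM in *Fmr1* KD against 10.6 to 17.3 CPM with *Zfp598* silenced (log2 fold change 0.76, SE 0.116, adjusted p = 0.00174, edgeR), and it passed with each letter. The median of this list was 0.02, beside 0.0021 for all genes. Of 80 ribosomal protein genes 3 were higher and 1 lower, and of 20 cytosolic aminoacyl-tRNA synthetase genes tested 0 passed.

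**Figure D5:**
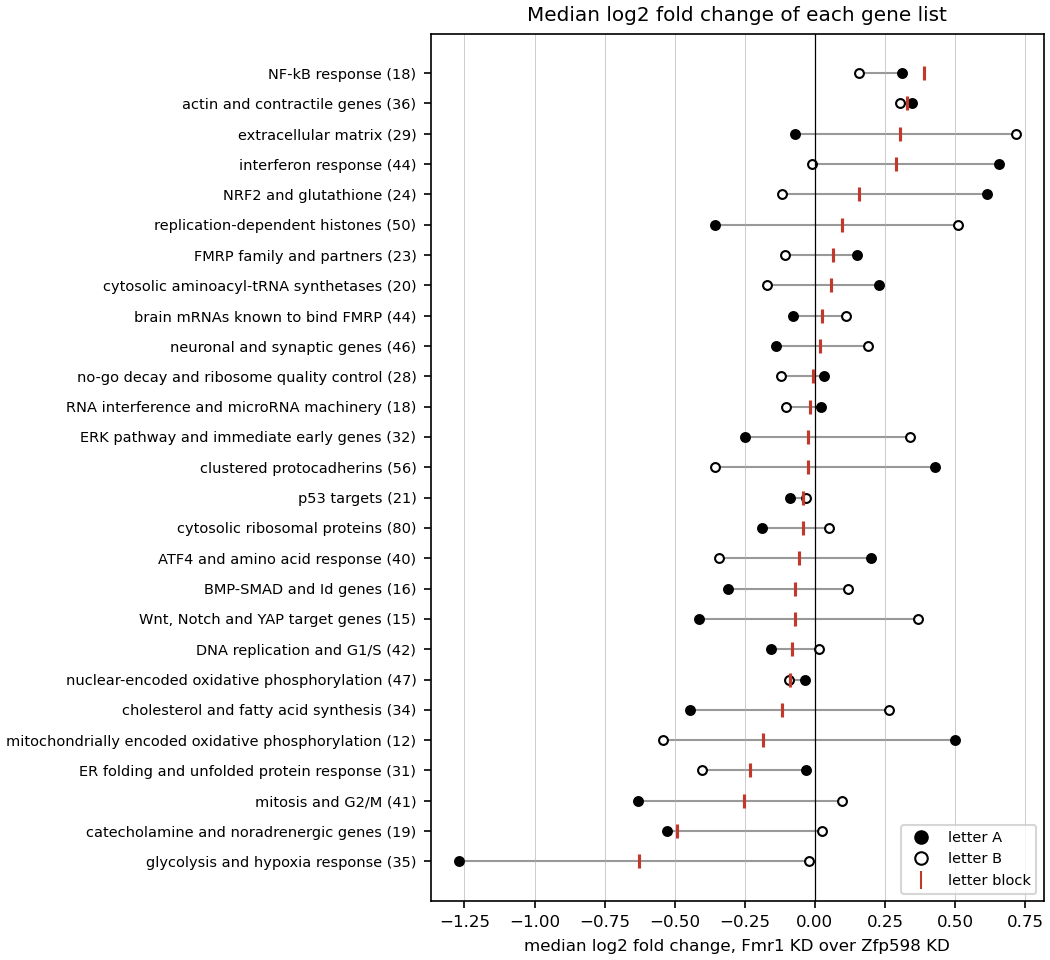
Median log2 fold change of *Fmr1* KD over *Zfp598* KD for each of 27 gene lists (number of genes tested in brackets) with the A siRNAs (filled), the B siRNAs (open) and the letter block (red bar). The glycolysis and hypoxia list lies lowest with the A siRNAs (-1.27) and in the letter block (-0.63) but not with the B siRNAs (-0.02), and the actin list, drawn up after values were seen, has nearly equal medians of 0.35 and 0.30.

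The 4 genes that the study followed further did not meet both criteria in this contrast. In the study they were among the transcripts that rose in both KDs over Scramble KD by RNA-seq. They were followed because, of those transcripts, only they were reproduced by RT-qPCR with both siRNAs. The study also reported increased stability of their mRNAs in each KD. A contrast of the KDs tests none of this. *Id3*, an inhibitor of helix-loop-helix factors, was at 12.3 to 15.9 CPM in *Fmr1* KD (median 14.2) and 6.33 to 14.2 CPM in *Zfp598* KD (median 10.2), both wholly above the 2.62 to 5.9 CPM of Scramble KD (log2 fold change 0.44, adjusted p = 0.0853, edgeR). Its log2 fold change was 0.76 with the A siRNAs (adjusted p = 0.0029, edgeR) and 0.15 with the B siRNAs (adjusted p = 0.56, edgeR). *Map3k8*, a kinase upstream of ERK, was at 0.808 to 1.48 CPM (median 1.08) and 0.422 to 1.2 CPM (median 0.785), with a log2 fold change of 0.50 (adjusted p = 0.341, edgeR). *Dbh*, the dopamine beta-hydroxylase, was at 0.536 to 3.76 CPM (median 2.45) and 2.53 to 6.41 CPM (median 3.84), and its log2 fold change of -0.92 passed the test (adjusted p = 0.0380, edgeR) without reaching 2-fold. *Tbr1*, a T-box factor of cortical neurons, had a log2 fold change of -0.26 in the letter-block fit, with opposite signs by letter, 1.78 with the A and -1.5 with the B siRNAs. It was at 0.0745 to 0.694 CPM with *Zfp598* siRNA A and at 1.2 to 2.15 CPM with *Zfp598* siRNA B, and at 0.342 to 1 CPM in all *Fmr1* KD libraries. Scramble KD held *Map3k8* at 0.0727 to 0.462 CPM, *Dbh* at 0.454 to 1.39 CPM and *Tbr1* at 0.0713 to 0.389 CPM. For each of these genes at least 1 KD overlapped Scramble KD.

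The 110 genes called in opposite directions comprised 84 that were lower in *Fmr1* KD with the A siRNAs and higher with the B siRNAs, and 26 the other way, and 49 of the 110 had a mean of at least 50 counts. In the examples below, chosen after values were seen, the siRNAs of each target differed from one another. *Galnt15*, a glycosyltransferase gene, was at 7.64, 10.1 and 10.1 CPM with *Fmr1* siRNA A and at 25, 31.2 and 31.5 CPM with *Fmr1* siRNA B. With *Zfp598* siRNA A it was at 38.7, 39.1 and 40.2 CPM and with *Zfp598* siRNA B at 6.45, 6.41 and 7.9 CPM, while Scramble KD spanned 24.2 to 42.2 CPM. The log2 fold change was therefore -2.08 for the A and 2.08 for the B siRNAs, and -0.04 in the letter-block fit. The teneurin gene *Tenm4* went the other way, at 160 to 178 CPM with *Fmr1* siRNA A and 66.8 to 80.3 CPM with *Zfp598* siRNA A (log2 fold change 1.16), and at 82.4 to 99.3 CPM with *Fmr1* siRNA B and 262 to 276 CPM with *Zfp598* siRNA B (-1.59).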

How the data were processed

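Total RNA of N2A cells was depleted of rRNA and sequenced, with 3 libraries for each of 6 siRNAs. Per the labels and the study's methods, the authors used Trim Galore for trimming, STAR for alignment to GRCm39 and featureCounts for counting over genes. The deposited counts, whole numbers for 55414 genes, are neither normalized nor pooled. The annotation release, the strand setting and the treatment of reads with several alignments are not given in the sources used here. All 18 columns were used, the 6 Scramble KD columns for levels and library sizes only.

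From the counts, TMM library sizes were set over 18 libraries, filterByExpr (at least 10 counts, 15 in total) kept 18491 genes, and the 12 KD libraries were fitted with glmQLFit and glmQLFTest of edgeR 4.0.16 (R 4.3.3, limma 3.58.1), once with the siRNA letter as a block and once with 4 siRNA groups. The method was tested on simulated data that held no difference between siRNA letters, unlike these libraries. Every adjusted p is Benjamini-Hochberg over all genes tested. The permutation test used log2(CPM + 0.5). DESeq2 1.42.0 was an alternative, beside other scalings, filters, fold criteria, blocks and siRNA pairings and leaving out each library. Symbols and coordinates came from GENCODE M39, which has 54749 of the 55414 genes. Replicates of every siRNA differed by more than sampling noise (lowest chi-square per degree of freedom, 2.8). PCR copies could not be told from independent molecules.

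Genes named were the targets, the 4 genes the study followed, the 10 per direction with the largest letter-block change among genes called with both letters at a mean of at least 50 counts, the 3 per direction below that mean, and up to 4 listed members called with both letters or, failing these, 2 called in the block fit. Other genes named, among them the remaining genes called with both letters, list members passing by adjusted p alone and genes of opposite direction, were chosen after values were seen, as was the actin list. The members and lists were chosen with earlier results of these data known. Promoters were RefSeq windows on GRCm38.p6, and pseudogenes were aligned with blastn. The values of 1 listed gene are not reported here.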

Additional observations from a re-analysis of the deposited data

Results flagged for a closer look

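For 8 of the named genes the difference between the KDs itself differed between the siRNA letters in edgeR's quasi-likelihood test at an adjusted p under 0.05. As A minus B on the log2 scale, this was 3.28 for *Tbr1*, 2.05 for *Ddc*, 1.61 for *Mmp9*, 1.17 for *Oasl1*, 0.821 for *Adamts1*, 0.391 for *Ero1a*, -0.895 for *Fmr1* and -2.28 for *Bnip3*. By the same test 5428 of the 18491 genes differed.

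In 3 of the named genes a single library lay far from the other 5 of its group by Dixon's criterion. These were *Nid1* at 6.65 CPM and *Celsr1* at 9.94 CPM, both in *Fmr1* siRNA B replicate 1, and *Trim65* at 11.3 CPM in *Fmr1* siRNA B replicate 3. Chance alone meets the criterion in about 1 in 20 groups, and it was applied to many named genes. Whether 3 such libraries exceed the number met by chance was not tested.

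Genes outside the comparison also carried signal in *Fmr1* siRNA B replicate 1. There Y-linked genes summed to 11.5 CPM and 9 stem cell markers, without *Lin28a* and *Dppa4*, to 33.3 CPM, above every Scramble KD library. Their part in the results was not tested, and the counts without that library are given with the results.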

How the results depend on the processing

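Calls depended most on the criterion and on the spread assumed. In the letter-block fit (130 higher, 79 lower), no filter on low counts gave 331 higher genes, a 1.5-fold criterion 316 and 272, the adjusted p alone 607 and 747, and glmTreat against 1.5-fold 4 and 3. With both letters (26 and 13), these gave 81 and 69 at 1.5-fold, 201 and 300 by adjusted p alone and 6 and 3 with glmTreat. Crossed letters gave 29 lower genes and all 4 pairings 17 higher ones. With counts summed per siRNA, 0 genes passed in either direction in edgeR (290 higher and 272 lower at an unadjusted p under 0.05, DESeq2 not run on sums), and *Fmr1* (log2 fold change -1.45) and *Zfp598* (1.38) had an adjusted p of 1. Without both libraries that stood apart, the block fit gave 82 and 50 and both letters 5 lower genes. Leaving out 1 library gave 84 to 160 higher and 48 to 130 lower genes in the block fit, and 18 to 43 and 7 to 31 with both letters. The highest of each came without *Zfp598* siRNA A replicate 1, the lowest without *Fmr1* siRNA B replicate 1, *Zfp598* siRNA A replicate 2, *Zfp598* siRNA B replicate 3 and *Zfp598* siRNA A replicate 3 in that order. The change of *Fmr1* then ranged from -1.49 to -1.32 and that of *Zfp598* from 1.27 to 1.39. *Tbr1* ranged from -0.63 to 0.054, reversed without *Fmr1* siRNA B replicate 3. Replicate numbers did not pair the libraries (same-number correlations -0.228 to 0.463, and not every library correlated best with its own number), and the replicate block gave 41 higher and 27 lower genes in the block fit and 30 and 13 with both letters. DESeq2 gave 26 and 14 with both letters, 24 and 12 of them among those of edgeR. The actin list had 12 higher and 0 lower members under every scaling tried. The causes were not tested. Of the other values for named genes, 608 kept the direction and side of the threshold, 72 lost and 1 gained the threshold. Depth limits the weakly counted genes most, as in 24 of the 39 calls.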

Other observations

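Other lists showed medians of opposite sign with the letters. Beside the counts below, 3.28% of all genes were higher and 4.04% lower by the adjusted p of the letter-block fit. Replication-dependent histone genes had a median log2 fold change of *Fmr1* KD over *Zfp598* KD of -0.36 with the A and 0.51 with the B siRNAs, with 4 of 50 tested members higher and 0 lower by the adjusted p of edgeR's letter-block fit (3 of them with each letter). Without *Fmr1* siRNA B replicate 1, 1 histone gene was higher and 0 passed with each letter. Mitochondrially encoded genes of oxidative phosphorylation had medians of 0.50 and -0.54, with 2 of 12 lower. Clustered protocadherins had medians of 0.43 and -0.36, and 2 of 56 were higher and 2 lower (3.57% each), near the shares of all genes. Among these *Pcdhgc3* (log2 fold change 0.67, 7.1 to 11.3 against 5.5 to 6.59 CPM) and *Pcdhb11* (-0.51, 14.3 to 22.5 against 19.3 to 35.8 CPM) passed with each letter in opposite directions, while *Pcdhga3* was called in the letter-block fit (1.03, adjusted p = 0.0464, edgeR) and not with both letters. Genes of cholesterol and fatty acid synthesis had medians of -0.44 and 0.26, with 1 of 34 lower (2.94%), below the share of all genes. The immediate early gene *Fosl2* was higher in *Fmr1* KD with each letter (0.30), at 106 to 126 against 87.9 to 97.6 CPM, and all its *Zfp598* KD libraries lay below all Scramble KD libraries (99.3 to 129 CPM). *Amotl2*, an inhibitor of YAP, was called in the letter-block fit at 2.87 to 7.18 against 1.26 to 3.36 CPM, and its change of 0.87 without *Fmr1* siRNA B replicate 1 fell short of 2-fold.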
